A study of Mus musculus with 6 samples.

Results

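Serpinb9, Serpinb9b, Serpinb6a and Serpinb6b encode clade B serpins, protease inhibitors that stay inside the cell and restrain granzymes and related proteases. All probe sets annotated to 1 of these 4 genes were taken, whatever their values. They number 5 of 45037, for 4 of 18193 genes with a probe set of their own. Serpinb9 has 2 probe sets, 1422601_at (called the first below, and the brighter) and 1439790_at (the second). Serpinb9b has 1422668_at, Serpinb6a has 1450138_a_at and Serpinb6b has 1422804_at. All 5 lay above the filter level, the 40th percentile of the array, on all 6 arrays.

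RNA came from CD8 T cells of MCA-205 tumours, a transplanted fibrosarcoma, in male C57BL/6 mice carrying a GFP reporter for the T-box transcription factor Eomes. Every mouse had received 250 ug of antibody to OX40 on days 12 and 16 and 200 ug of antibody to CTLA-4 on days 12, 14 and 16, and tumours were harvested on day 19. Cells were sorted by flow cytometry into a GFP-positive fraction (Eomes+, 3 arrays) and a GFP-negative fraction (Eomes-, 3 arrays). Both fractions therefore share tumour, strain, reporter and treatment, and the comparison asks how they differ in the inhibitors. No label says which animals or how many gave each array, so p-values here rest on the spread among 6 samples, which may in part be technical.

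Serpins trap a protease by offering it a loop that mimics a substrate, and the cleaved serpin stays bound to the enzyme. Cytotoxic T cells keep granzymes in secretory granules, and enzyme that leaks into the cytosol can harm the cell that made it. Serpinb9, also known as SPI6, inhibits granzyme B and is known for protecting cytotoxic T cells from it. Serpinb9b, also known as SPI-CI, inhibits granzyme M, and Serpinb6b inhibits mouse granzyme A. Serpinb6a, also known as SPI3, is widely expressed outside the lymphoid lineage too and inhibits the neutrophil protease cathepsin G.

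All 4 genes lie on mouse chromosome 13. RefSeq windows of 250 bases before a transcription start were found for 4 of 4 genes (build GRCm38.p6). Those of Serpinb9 and Serpinb9b are shown because these paralogues gave group differences of opposite sign on the first Serpinb9 probe set and of like sign on the second. In a global alignment the pair was identical at 155 of 228 aligned bases (68.0%), against 46.8% to 59.6% for the other pairs of windows. Capitals mark the interferon response motif GAAANNGAAA, here on the opposite strand. Both sequences lie on the plus strand, Serpinb9 at chr13:33004291-33004540 and Serpinb9b at chr13:33027164-33027413.
Serpinb9: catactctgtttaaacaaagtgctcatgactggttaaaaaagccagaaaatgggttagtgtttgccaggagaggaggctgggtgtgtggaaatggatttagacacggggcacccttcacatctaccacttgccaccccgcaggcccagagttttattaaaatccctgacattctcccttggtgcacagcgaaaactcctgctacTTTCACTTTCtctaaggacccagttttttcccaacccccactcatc
Serpinb9b: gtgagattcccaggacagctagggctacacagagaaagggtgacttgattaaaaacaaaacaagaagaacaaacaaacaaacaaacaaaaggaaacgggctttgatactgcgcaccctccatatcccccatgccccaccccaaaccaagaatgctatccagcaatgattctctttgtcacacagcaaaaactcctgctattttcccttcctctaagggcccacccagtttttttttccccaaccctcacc

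The interferon response motif was found 46 to 37 bases before the Serpinb9 start. It was also present before 1 of the 2 Serpinb6a starts, and 2.98% of all 32851 windows of this length hold it on either strand. It was not found in the Serpinb9b and Serpinb6b windows. The T-box core GGTGTGA, held by 3.33% of windows, the AP-1 motif TGANTCA (6.75%) and the RUNX motif TGTGGT (14.0%) were not found in the windows of the 4 genes on either strand. No motif overlapped another, since 1 kind alone was found.

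Eomes itself, the check on the sort, had a log2 signal of 10.38, 9.86 and 8.38 in Eomes+ and of 6.85, 6.89 and 5.42 in Eomes-, with every Eomes+ array higher. The array medians lay between 6.35 and 6.42 log2, and precision is limited by there being 3 arrays a group. The mean of 11 T cell and CD8 identity genes was 10.67 and 10.81 log2 on the arrays of number 3 (Eomes+ and Eomes-) and 11.75 to 12.13 log2 on the other 4. The 16 genes listed as tumour and fibroblast markers include Thy1 and Vim. Their mean was 12.16 and 12.29 log2 on the arrays of number 3 and 9.62 to 11.41 log2 on the others. Over 14 tested of 16 macrophage and monocyte genes it ranged from 8.61 to 11.01 log2 in Eomes+ and from 8.25 to 10.94 log2 in Eomes-. Of 6 NK genes, Ncr1 and Klrb1c did not pass the filter. The mean of the other 4, which are Eomes, Fcgr3, Nkg7 and Tyrobp, was 10.38, 10.81 and 10.74 log2 in Eomes+ and 9.38, 10.00 and 10.14 log2 in Eomes-, with every Eomes+ array higher. Eomes, on which the cells were sorted, is part of that mean and differed by 3.15 log2. The median difference of the 4 genes was 0.18 log2, with 3 higher and 1 lower in Eomes+ (Nkg7, -0.31 log2). The separation of that mean therefore cannot be read apart from the sort. Both number 3 arrays thus held less T cell signal and more tumour signal than the rest. Some serpin differences without number 3 arrays are given below, but the source of the serpin signal was not tested.

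None of the 4 serpin genes differed between the fractions beyond the spread between arrays. In the limma fit over 12571 genes (1 probe set per gene, the brightest), 0 of 4 passed an adjusted p of 0.05, against a background of 0% (0 genes), and 0 of 4 had an unadjusted p under 0.05, against 3.25% (409 genes). The arrays of 1 fraction lay entirely below those of the other for 0 of 4 genes, where 4.66% of all genes were lower throughout in Eomes+ and 3.05% higher throughout. With every probe set as a row of its own, 0 of 5 passed an adjusted p of 0.05 (background 0% of 27766, with 936 at an unadjusted p under 0.05), and 0 of 5 were lower throughout (background 5.14%). The median difference of the 4 genes was -0.20 log2 and that of all genes -0.016 log2. Eomes, at 3.15 log2 higher in Eomes+ (SE 0.64, limma unadjusted p = 0.00205), did not pass in the gene fit either (adjusted p = 0.9999). Missing the adjusted threshold therefore does not show that a gene was equal in the fractions.

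**Figure D1:**
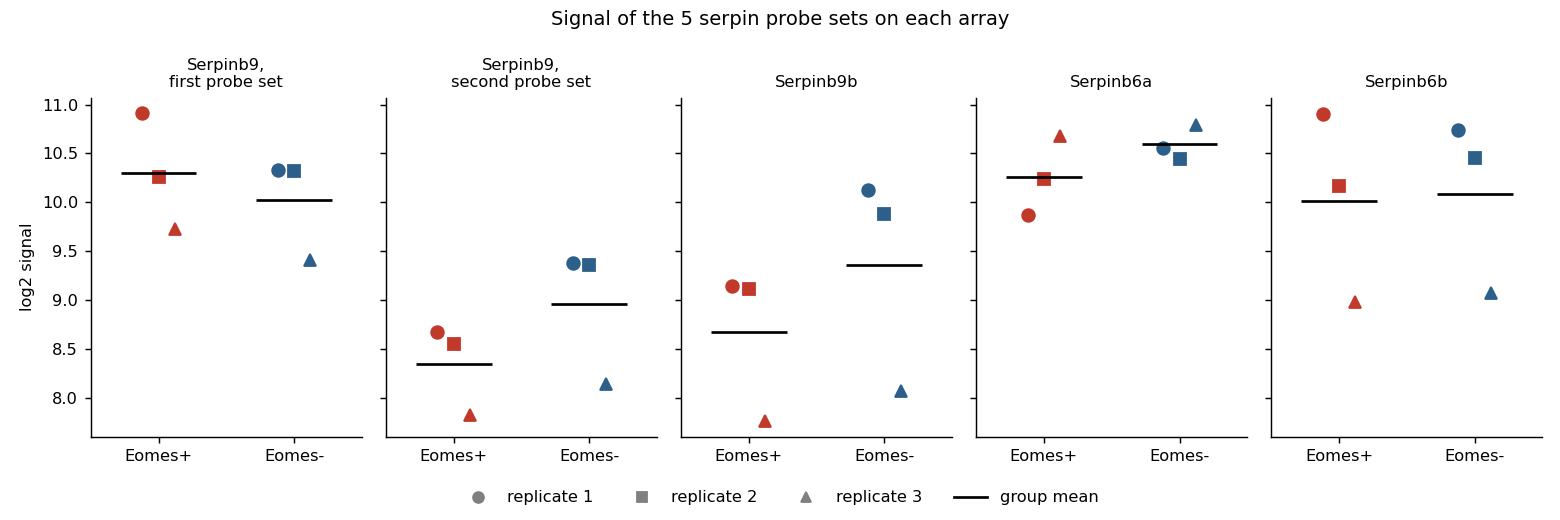
Log2 signal (y axis) of the 5 serpin probe sets on the 3 Eomes+ and 3 Eomes- arrays, with 1 symbol per replicate number and a line at the group mean. The groups overlap in every panel, and the replicate 3 arrays are the lowest in each group except for Serpinb6a, where they are the highest.

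The first Serpinb9 probe set read 10.91, 10.26 and 9.73 log2 in Eomes+ (replicates 1, 2 and 3, the order used throughout) and 10.33, 10.32 and 9.41 log2 in Eomes-. Its highest value was in Eomes+ and its lowest in Eomes-, and the groups overlapped. Means were 10.30 ± 0.59 log2 in Eomes+ and 10.02 ± 0.53 in Eomes- (SD, n = 3 each). The difference of 0.28 log2 (SE 0.39, 95% interval -0.66 to 1.21) did not pass limma's test (adjusted p = 1.00, unadjusted p = 0.502). Its sign turned when Eomes+ replicate 1 (-0.030 log2) or Eomes- replicate 3 (-0.028 log2) was left out.

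The second Serpinb9 probe set gave the opposite sign. Of 6050 genes with at least 2 tested probe sets, 2430 had opposite signs on the 2 brightest. The second Serpinb9 probe set read 8.67, 8.55 and 7.82 log2 on the Eomes+ arrays and 9.37, 9.35 and 8.14 log2 on the Eomes- arrays. Eomes- replicates 1 and 2 were above all Eomes+ arrays, while Eomes- replicate 3 lay among them. Means were 8.35 ± 0.46 against 8.96 ± 0.71 log2 (SD, n = 3 each), a 1.52-fold lower level in Eomes+. That difference of -0.61 log2 (SE 0.43, 95% interval -1.62 to 0.41) missed the test in the fit of all probe sets (limma adjusted p = 1.00, unadjusted p = 0.198). It came to -1.02 log2 when Eomes- replicate 3 was left out and to -0.35 log2 when Eomes+ replicate 3 was. Over the 6 arrays the second probe set had r of 0.98 with the Serpinb9b probe set and of 0.60 with the first. The first had r of 0.93 with Serpinb6b. Such values were common, with 399 tested genes above 0.9 with Serpinb9b. Whether signal is shared between the probe sets of these paralogues was not tested. The platform annotation ties the first probe set to a RefSeq mRNA record and the second to an expressed sequence tag. Where each lies in the transcript was not analysed here.

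Taken within each array, the first Serpinb9 probe set exceeded the second by 2.24, 1.71 and 1.90 log2 in Eomes+ and by 0.96, 0.97 and 1.27 log2 in Eomes-. Every Eomes+ array was above every Eomes- array. Means were 1.95 ± 0.27 against 1.07 ± 0.18 log2 (SD, n = 3 each), and the difference was 0.89 log2 (two-sided exact permutation p = 0.1, which no split of 3 against 3 arrays can go below; 0.3 adjusted over 15 such within-array differences). The same quantity, the brightest minus the next brightest probe set, was fitted for the 6050 genes with at least 2 tested probe sets. Serpinb9 ranked 36 by p there (SE 0.23, limma unadjusted p = 0.00719, adjusted p = 0.856), 0 genes passed (0%), and 346 had an unadjusted p under 0.05. A difference of at least that size was found for 233 genes (3.85%), and 6.35% of the genes were higher throughout in Eomes+. The probe set comparison was added after the values were seen.

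Serpinb9b, the granzyme M inhibitor, had the largest difference of the 4 genes. It read 9.14, 9.11 and 7.76 log2 on the Eomes+ arrays and 10.13, 9.88 and 8.07 log2 on the Eomes- arrays. Eomes- replicates 1 and 2 were the highest of the 6, and the replicate 3 arrays the lowest in both groups. Means were 8.67 ± 0.79 log2 against 9.36 ± 1.12 (SD, n = 3 each), a 1.61-fold lower level in Eomes+. The difference of -0.69 log2 (SE 0.65, 95% interval -2.24 to 0.87) was smaller than the spread within Eomes- and missed limma's test (adjusted p = 1.00, unadjusted p = 0.326). It was -0.87 log2 without both number 3 arrays, where the other 2 Eomes+ arrays lay below the other 2 Eomes- arrays (limma adjusted p = 0.561). Leaving out Eomes+ replicate 3 alone gave -0.23 log2, and leaving out Eomes- replicate 3 alone gave -1.33 log2 with no overlap (limma adjusted p = 0.807). The share of all genes that separate in these smaller sets is not given here, so the separations carry no weight. With replicate number as a block in the fit, the SE of the -0.69 log2 was 0.22 (limma adjusted p = 0.353).

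Serpinb9b was also set against Serpinb9, its paralogue. Within an array, Serpinb9b minus the second probe set was 0.47, 0.57 and -0.06 log2 in Eomes+ and 0.75, 0.52 and -0.07 log2 in Eomes-, with a group difference of -0.08 log2 (exact permutation p = 0.8). Against the first probe set, it was -1.77, -1.14 and -1.97 log2 in Eomes+ and -0.20, -0.44 and -1.34 log2 in Eomes-, with a group difference of -0.96 log2 (exact permutation p = 0.2). The groups overlapped in both quantities.

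Serpinb6a, the cathepsin G inhibitor, read 9.87, 10.24 and 10.67 log2 on the Eomes+ arrays and 10.56, 10.45 and 10.79 log2 on the Eomes- arrays. It had the narrowest range of the 5 probe sets, 0.92 log2, and the replicate 3 arrays were the highest in each group. Means were 10.26 ± 0.40 log2 against 10.60 ± 0.17 (SD, n = 3 each). The difference was -0.33 log2 (SE 0.24, 95% interval -0.92 to 0.25; limma adjusted p = 1.00, unadjusted p = 0.216). Without both number 3 arrays it was -0.44 log2 and the Eomes+ arrays lay below the Eomes- arrays (limma adjusted p = 0.851), and without Eomes+ replicate 1 alone it was -0.14 log2. The share of all genes that separate in the smaller set is not given here, so that separation carries no weight.

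Serpinb6b, the granzyme A inhibitor, read 10.90, 10.17 and 8.98 log2 on the Eomes+ arrays and 10.74, 10.46 and 9.07 log2 on the Eomes- arrays. It spanned 1.93 log2 across the arrays, and in each fraction replicate 1 was the highest and replicate 3 the lowest. Means were 10.02 ± 0.97 log2 against 10.09 ± 0.89 (SD, n = 3 each). The difference was -0.07 log2 (SE 0.62; limma adjusted p = 1.00, unadjusted p = 0.911), and its interval of -1.55 to 1.41 log2 leaves room for a change of more than 2-fold either way. Its sign turned without Eomes+ replicate 3 (0.45 log2), Eomes- replicate 1 (0.25) or Eomes- replicate 2 (0.11). Within an array, Serpinb6b minus Serpinb9b was 1.76, 1.05 and 1.22 log2 in Eomes+ and 0.61, 0.58 and 1.00 log2 in Eomes-. The groups did not overlap in that quantity (difference 0.62 log2; exact permutation p = 0.1, 0.3 adjusted over 15). That pair was not planned, and no background over other gene pairs is given.

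The serpins differed in which arrays were low. Both Serpinb9 probe sets, Serpinb9b and Serpinb6b were lowest in each group on the replicate 3 arrays, where the T cell gene mean was also lowest. Serpinb6a was highest in each group on those arrays, where the tumour gene mean was highest. Over all 6 arrays its r was 0.62 with the tumour gene mean and -0.60 with the T cell gene mean. Eomes- replicate 1 was higher in Serpinb6a than Eomes+ replicate 2 (10.56 against 10.24 log2), with a lower tumour gene mean (9.62 against 11.41 log2). The other probe sets had r of 0.83 to 0.97 with the T cell gene mean and of -0.95 to -0.80 with the tumour gene mean. For the first Serpinb9 probe set these were 0.83 and -0.88. The source of the signal was not tested. In bulk RNA, fewer cells of a type and less RNA per cell cannot be told apart. Taken relative to the T cell gene mean of the same array, the first Serpinb9 probe set was at -1.03, -1.49 and -0.95 log2 in Eomes+ and -1.79, -1.79 and -1.39 log2 in Eomes-, a difference of 0.50 log2 (exact permutation p = 0.2). On the same scale the second probe set was at -3.27, -3.20 and -2.85 log2 in Eomes+ and -2.75, -2.76 and -2.67 log2 in Eomes-, a difference of -0.38 log2 with every Eomes+ array lower (exact permutation p = 0.1, 0.3 adjusted over 15). Relative to the T cell genes, Serpinb9b differed by -0.46 log2 (exact permutation p = 0.2), Serpinb6b by 0.15 log2 (p = 0.6) and Serpinb6a by -0.11 log2 (p = 1).

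**Figure D2:**
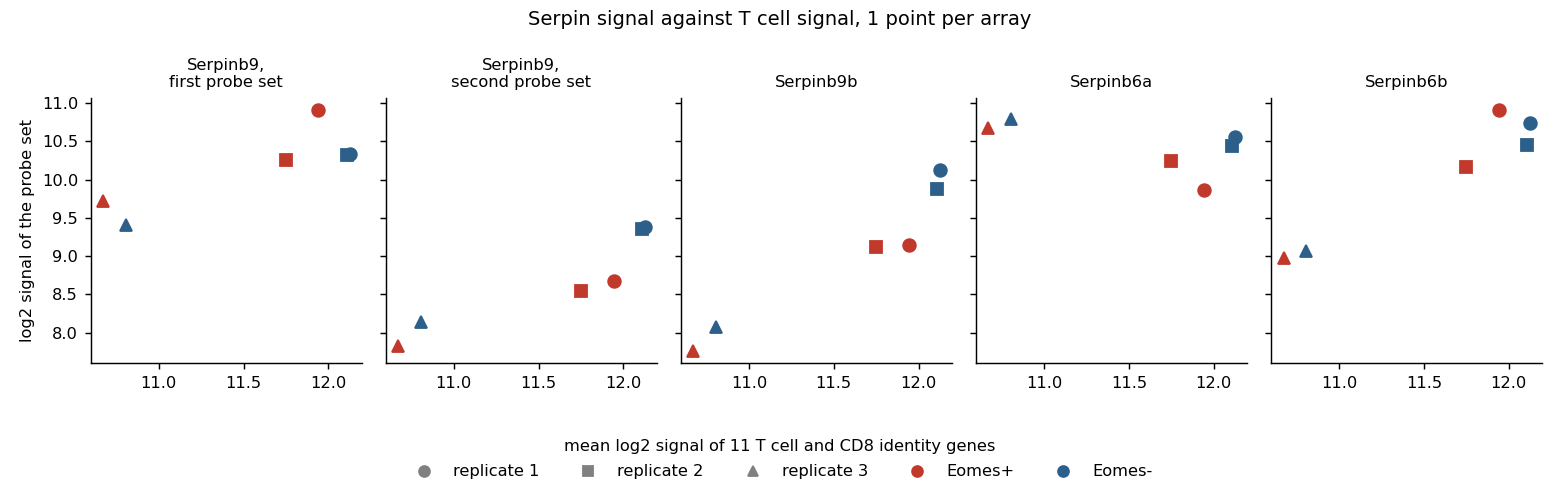
Log2 signal of each serpin probe set (y axis) against the mean log2 signal of 11 T cell and CD8 identity genes (x axis), with 1 point per array, coloured by fraction and shaped by replicate number. The replicate 3 arrays stand apart at the low end of the x axis, with low values of 4 probe sets and high values of Serpinb6a.

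The granzymes that these serpins restrain were set beside them. Gzmb, the target of Serpinb9 and the main cytotoxic granzyme, read 13.17, 13.06 and 12.23 log2 in Eomes+ and 13.18, 13.09 and 12.14 log2 in Eomes-, a difference of 0.02 log2 (SE 0.36). The values of both fractions were nearly the same for each replicate number. Gzma, the target of Serpinb6b, read 10.96, 12.09 and 11.18 log2 in Eomes+ and 10.50, 11.33 and 10.04 log2 in Eomes-, a difference of 0.78 log2 (SE 0.42, 95% interval -0.22 to 1.79). Gzmm, the target of Serpinb9b, read 6.91, 7.11 and 5.94 log2 in Eomes+ and 6.25, 6.06 and 5.49 log2 in Eomes-, a difference of 0.72 log2 (SE 0.38, 95% interval -0.19 to 1.63). It lay near the filter level, and below it on Eomes- replicate 3, so the size of its difference is uncertain. Ctsg, the gene of cathepsin G, did not pass the filter, at 3.68 to 4.05 log2 on the 6 arrays.

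**Figure D3:**
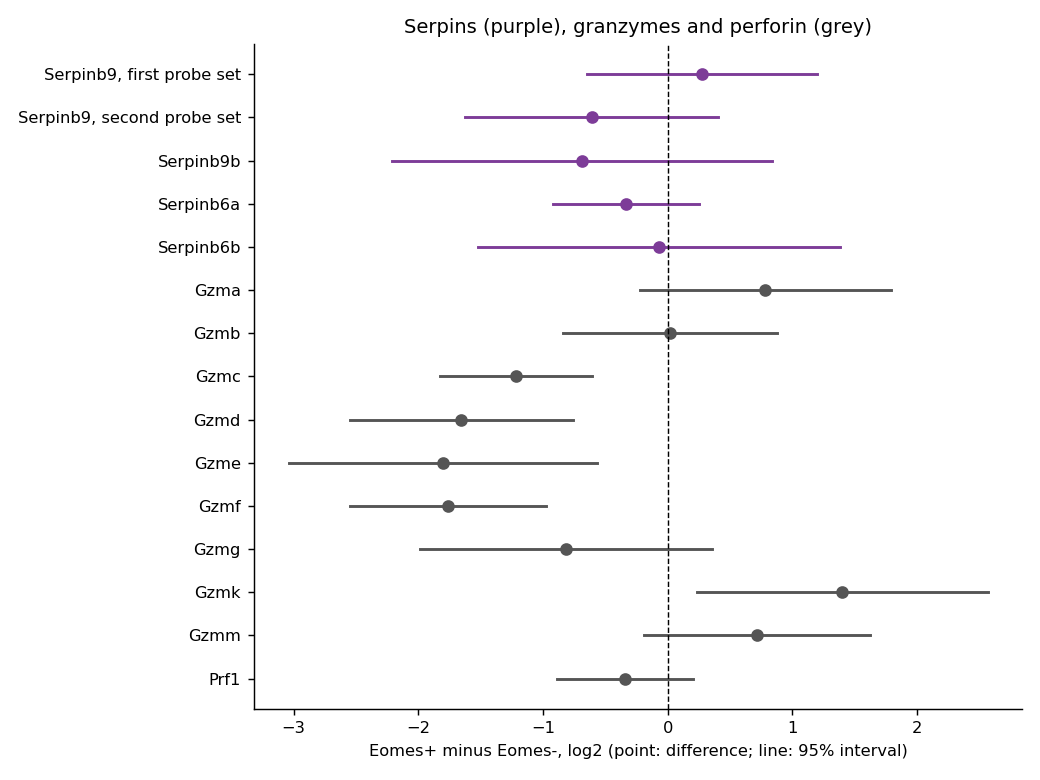
Difference between Eomes+ and Eomes- in log2 (x axis; points, with lines for 95% intervals) for the 5 serpin probe sets (from the fit of all probe sets) and for 10 tested granzyme and perforin genes. All 5 serpin intervals cross 0, whereas those of Gzmc, Gzmd, Gzme and Gzmf lie below 0 and that of Gzmk above, before any adjustment over genes.

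Relative to Gzmb, the group difference of Serpinb9 had a different sign for each probe set. Gzmb minus the first probe set was 2.26, 2.80 and 2.51 log2 in Eomes+ and 2.85, 2.76 and 2.73 log2 in Eomes-, a difference of -0.26 log2 (exact permutation p = 0.3). Leaving out Eomes+ replicate 1 gave -0.13 log2, and leaving out Eomes+ replicate 2 gave -0.40 log2 with no overlap, a separation given without a background. Gzmb minus the second was 4.50, 4.51 and 4.41 log2 in Eomes+ and 3.81, 3.73 and 4.003 log2 in Eomes-, a difference of 0.63 log2 with every Eomes+ array higher (exact permutation p = 0.1, 0.3 adjusted over 15). The sign of the difference therefore depended on the Serpinb9 probe set. Neither test showed that inhibitor and enzyme differed unequally, and an exact permutation p here cannot go below 0.1.

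Granzyme M was set against its inhibitor Serpinb9b in the same way. Gzmm minus Serpinb9b was -2.23, -2.01 and -1.82 log2 in Eomes+ and -3.88, -3.82 and -2.58 log2 in Eomes-, so every Eomes+ array was higher. Means were -2.02 ± 0.21 log2 against -3.42 ± 0.73 (SD, n = 3 each), a difference of 1.41 log2 (exact permutation p = 0.1, 0.3 adjusted over 15). Leaving out single arrays gave differences of 1.18 to 1.83 log2. With 50 added to the linear values, which compresses low signals such as Gzmm's, the difference was 1.08 log2 and the groups overlapped (exact permutation p = 0.2). For Gzma minus Serpinb6b the values were 0.06, 1.92 and 2.20 log2 in Eomes+ and -0.24, 0.87 and 0.97 log2 in Eomes-, and the groups overlapped (difference 0.86 log2; exact permutation p = 0.3). That difference was 1.53 log2 with no overlap without Eomes+ replicate 1, a separation given without a background. It was 0.45 log2 without Eomes+ replicate 3, and 0.47 log2 without Eomes- replicate 1. Both pairs were set up after the values were seen.

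**Figure D4:**
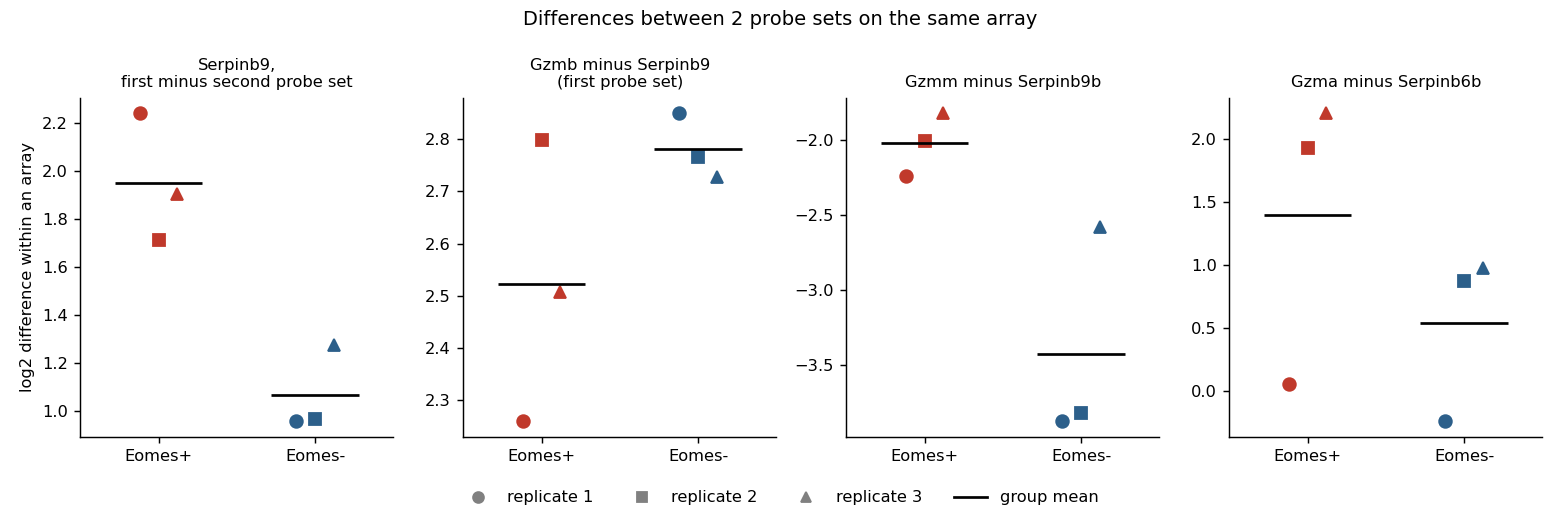
Log2 difference between 2 probe sets on the same array (y axis, with its own scale in each panel), by fraction, with 1 symbol per replicate number and a line at the group mean. The fractions do not overlap for the Serpinb9 probe sets or for Gzmm minus Serpinb9b, and overlap for Gzmb minus Serpinb9 (first probe set) and Gzma minus Serpinb6b.

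Among the 11 granzyme and perforin genes, 10 were tested and 0 passed limma's adjusted p of 0.05. The groups did not overlap for 5 of them, with Gzmc, Gzmd, Gzme and Gzmf lower and Gzmk higher in Eomes+. Over all genes, 4.66% were lower throughout and 3.05% higher throughout. The median over the 10 was -0.58 log2, against -0.016 log2 over all genes and -0.20 log2 over the serpins. It was -0.34 log2 with no filter and -0.84 log2 with the probe sets of a gene averaged. Gzmf, which lies in the Gzmb gene cluster, differed by -1.76 log2 (SE 0.33, limma unadjusted p = 0.0013), and Gzmk by 1.40 log2 (SE 0.49, limma unadjusted p = 0.0257). Signal can be shared among the probe sets of Gzmd, Gzme and Gzmf, which are closely related in sequence. Prf1, the pore-forming protein that delivers granzymes, differed by -0.34 log2 (SE 0.23).

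The other clade B serpins were mostly dim. Of 23 listed names, 14 had a probe set of their own and 2 were tested, and 0 passed limma's adjusted p of 0.05. Serpinb8 read 6.05, 6.23 and 6.33 log2 in Eomes+ and 5.76, 6.64 and 7.65 log2 in Eomes-, a difference of -0.48 log2 (SE 0.47). Serpinb1a, an inhibitor of neutrophil elastase, was close to the filter level, with a difference of -0.03 log2 (SE 0.39). The nearest relatives in name, Serpinb9c, Serpinb9d, Serpinb9g, Serpinb6c and Serpinb6e, lay below the filter level on all 6 arrays. So did 1 probe set shared by 4 symbols of the Serpinb9 group, which read 2.58 to 3.08 log2.

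Serpins of other clades had 5 tested members of 13 measured, 4 with a higher and 1 with a lower mean in Eomes+. Their median was 0.22 log2, or 0.069 log2 with no filter, and 0 passed limma's adjusted p of 0.05. Serpinh1, a collagen chaperone of matrix-making cells, read 10.33, 12.23 and 12.91 log2 in Eomes+ and 9.99, 11.56 and 12.90 log2 in Eomes-, high where the tumour genes were high. Among 4 tested cystatins, which inhibit cysteine proteases, 2 had a higher and 2 a lower mean. Cst7, the cystatin of cytotoxic granules, differed by -0.57 log2 (SE 0.45). The 7 tested cathepsins and granule proteases had a median of -0.0043 log2, with 3 means higher and 4 lower, and of -0.24 log2 with the probe sets of a gene averaged. Over 11 tested genes of granule cargo and exocytosis the median was -0.16 log2, with Lyst at 0.92 log2 (SE 0.30) and Vamp8 at -0.42 log2 (SE 0.13), both with groups that did not overlap, as also for Vamp7 (0.51 log2, SE 0.23), where 4.66% of all genes were lower throughout and 3.05% higher throughout. Limma's adjusted p of 0.05 was passed by 0 of 4, 0 of 7 and 0 of 11 genes of these lists.

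The genes whose signal ran most like each serpin over the 6 arrays were taken from 5994 tested genes with a range of at least 1 log2. By Pearson correlation of log2 values, Serpinb9 was most like 1600014C10Rik, 2610318N02Rik and Txnip (r = 0.996, 0.995 and 0.994). Serpinb9b was most like Pmaip1, Haus3 and Nmrk1 (0.999, 0.999 and 0.993). Pmaip1, the BH3-only gene of Noxa, read 8.79, 8.71 and 7.43 log2 in Eomes+ and 9.85, 9.48 and 7.70 log2 in Eomes-, with the same order of arrays as Serpinb9b. Serpinb6b was most like Zfp110, Fli1 and Bcap29 (each at 0.997), and Serpinb6a like Knop1, S1pr3 and Myo10 (0.993, 0.989 and 0.980). These values are descriptions only. The arrays share differences in T cell and tumour signal, and r was above 0.9 for 385 genes with Serpinb9, 399 with Serpinb9b, 619 with Serpinb6b and 99 with Serpinb6a.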

How the data were processed

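The authors deposited log2 microarray signals of 45101 probe sets for 6 samples, between 1.68 and 14.95. The log2 scale was read from the values. The submitters' processing notes list MAS5 and Transcriptome Analysis Console without version or role; the summary and scaling steps are not given in the sources used here. Near-equal array medians mean that a shift common to most genes would not be seen.

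Control probe sets (64) were left out. Symbols came from the platform annotation, updated by gene identifier through RefSeq (GRCm38.p6; 34741 of 34945 probe sets with 1 symbol). Probe sets above the 40th percentile of the array in 3 or more arrays were kept (27766), and the brightest stood for each of 12571 genes.

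The group test was limma's (version 3.58.1, R 4.3.3; lmFit, eBayes with an intensity trend, no replicate block, two-sided, Benjamini-Hochberg adjustment, threshold 0.05), tested on simulated data. The probe set contrast over 6050 genes used no trend. Differences within an array were compared by exact permutation tests over 20 assignments. Of the 15 such differences, only Gzmb minus the first Serpinb9 probe set was planned. Other genes were named from fixed lists, with all tested granzymes and clade B serpins open to naming, at most 4 genes of each other list by p, and the 3 most correlated genes per serpin. Ctsg, untested clade B serpins and untested markers were named outside that rule, after their values were seen. The genes, lists and tests were chosen with earlier results of these data known. Motifs and alignments were computed with Biopython 1.88.

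Alternatives were a replicate block, quantile normalization, median centring, log2(linear value + 50), no filter or the 60th percentile, the mean of a gene's probe sets, changes to the variance model, weighted arrays, covariates for other cells or T cells, and samples left out. Whether replicate numbers pair the arrays was checked.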

Additional observations from a re-analysis of the deposited data

How the results depend on the processing

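No serpin passed the threshold under any of the alternatives run. The differences ranged from -1.33 to -0.23 log2 for Serpinb9b, from -0.54 to -0.14 for Serpinb6a and from -1.02 to -0.35 for the second Serpinb9 probe set, always lower in Eomes+ and with limma adjusted p of at least 0.151, 0.324 and 0.122. Serpinb9 was -0.17 log2 with its probe sets averaged and -0.020 with array weights, and between -0.030 and 0.56 with 1 array left out. With the covariates for other cells and for T cells it was 0.41 and 0.44 log2 (limma unadjusted p = 0.0474 and 0.0425, adjusted p = 0.549 and 0.551). Serpinb6a was -0.40 and -0.42 log2 there (limma unadjusted p = 0.0471 and 0.0370, adjusted p = 0.549 and 0.545). The share of all genes at such p with these covariates is not given here. Serpinb6b turned to 0.15 with other cells' markers as a covariate, 0.21 with the T cell covariate and 0.037 without both arrays of number 2 (0.037 with the block too), and lay between -0.58 and 0.45 with 1 array left out. Gzmb minus Serpinb9 was 0.63 log2 on the second probe set. The first minus second Serpinb9 probe set stayed between 0.74 and 1.00, and Gzmm minus Serpinb9b between 1.08 and 1.83, the lowest with 50 added to the linear values, where its groups overlapped. The cause of the turned signs was not tested.

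Arrays of numbers 1, 2 and 3 gave correlations of deviations of 0.595, 0.0989 and 0.628. Number 2 narrowly missed the required 0.1, so the numbers were not taken to pair the samples. Eomes- replicate 2 correlated better with Eomes+ replicate 1 (0.302) than with its own number. With the replicate block, limma called 17 genes against 0 without it. Serpinb9b was at -0.69 log2 with an SE of 0.22, against 0.65 without the block (limma with block, unadjusted p = 0.0154, adjusted p = 0.353). The second Serpinb9 probe set was at -0.61 log2 (SE 0.22, limma unadjusted p = 0.0264, adjusted p = 0.430). Limma unadjusted p was 0.155 for Serpinb9, 0.0780 for Serpinb6a and 0.675 for Serpinb6b. The share of all genes at such p with the block is not given here. Array weights gave 253 called genes, the covariate for other cells 8, the T cell covariate 9, and the block without both arrays of number 3 gave 68. The T cell covariate, the block with a number left out and the second probe set against Gzmb were added after seeing the data. Signal near background limits what can be said of Gzmm, Serpinb1a and Serpinb8.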
